A study of Mus musculus with 13 samples.

Results

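The GIMAP genes (GTPases of immunity-associated proteins) were described in sorted mouse splenic CD4 T cells by symbol, which gave 8 genes of the 18649 in the deposited table: Gimap1, Gimap3, Gimap4, Gimap5, Gimap6, Gimap7, Gimap8 and Gimap9. RNA-seq libraries were made from 3 populations of CD4+ spleen cells sorted on surface PD-1, an inhibitory receptor, and on GFP that reports Foxp3, the lineage factor of regulatory T cells. PD1hi cells (CD4+, PD-1 high, Foxp3-GFP negative) had 3 libraries. Treg (CD4+, PD-1 negative, Foxp3-GFP positive) had 5 libraries, and conventional cells, Tconv (CD4+, negative for PD-1 and Foxp3-GFP), had 5. Each population was sorted in experiments 3, 5 and 6, and no treatment is named for any group. The sources used here give no strain, sex or age of the mice and no number of animals per library. The 4 libraries titled as replicates were averaged with their partner, so n = 3 values per population throughout. Nothing in the labels ties those libraries to other animals, so a p-value here covers only the spread among these samples, part of which may be technical. The comparisons share populations and are therefore not independent of each other.

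GIMAP proteins are small GTPases of the AIG1 family that are made mainly in lymphocytes. Most sit on membranes of organelles such as lysosomes, mitochondria, the endoplasmic reticulum and the Golgi apparatus, and several bind each other. They are known for their part in lymphocyte survival: rats and mice that lack GIMAP5 lose most peripheral T cells, and GIMAP1 is needed to keep mature T and B cells. The genes lie side by side in a single cluster, on chromosome 6 of the mouse.

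Levels are given as scaled counts, which are reads per gene divided by a size factor of the library, and are not corrected for gene length. Libraries held 15971126 to 24216463 reads in genes, and each GIMAP gene had 2434 to 51225 reads in each library, so all 8 passed the minimum mean of 10 scaled counts that left 14177 genes for testing. The sort was checked first. Pdcd1, which encodes PD-1, averaged 37370 ± 3290 in PD1hi, against 1955 ± 38.5 in Treg and 1132 ± 136 in Tconv (SD, n = 3 each). Foxp3 averaged 106 ± 33.4 in PD1hi, 15890 ± 513 in Treg and 291.5 ± 35.8 in Tconv (SD, n = 3 each). A pair of libraries stood apart. The second Treg library of experiment 3 differed from its partner by a chi-square of 73.5 per degree of freedom, against 7.768 to 9.047 for the other pairs titled as replicates. PD1hi of experiment 6 had the fewest reads and held the lowest PD1hi value of Gimap3, Gimap4, Gimap6, Gimap8 and Gimap9. Differences of members that move by over 1.5 times without either library are given with and without it.

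All 8 GIMAP genes were abundant in all 3 populations. Gimap4 and Gimap6 ranked 32nd and 33rd of the 14177 tested genes by mean scaled count, Gimap3 ranked 91st, and Gimap5, the lowest, ranked 924th. The summed count of the 8 genes took 0.529 to 0.589% of all reads in genes in PD1hi libraries, 0.633 to 0.72% in Treg libraries and 0.577 to 0.639% in Tconv libraries. The share in each Treg library except the second of experiment 3 (0.633%) was above all others. Per kilobase of exon (GENCODE M21), Gimap4 was the highest of the family in every population, with 15700 ± 2360 scaled counts per kilobase in PD1hi, 23600 ± 1480 in Treg and 21800 ± 1680 in Tconv (SD, n = 3 each). Gimap5 was the lowest on this scale in every population, with 1170 ± 118 in PD1hi, 997 ± 44.6 in Treg and 730 ± 71.9 in Tconv (SD, n = 3 each). Gimap5 shares much of its coding sequence with Gimap3, so the split of reads between these genes, and their levels, are uncertain.

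**Figure D1:**
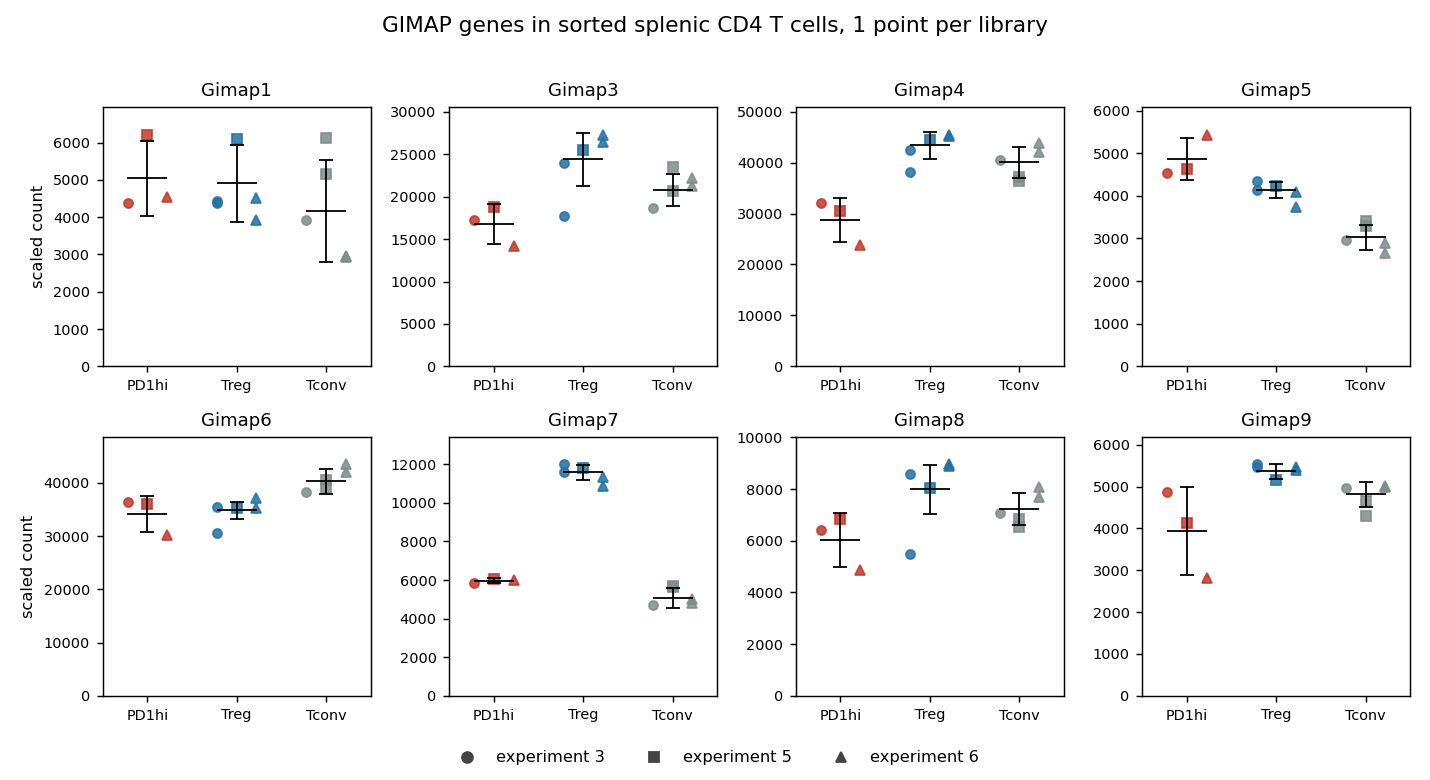
Scaled count of each GIMAP gene (vertical axis, from 0) in the 3 PD1hi, 5 Treg and 5 Tconv libraries, with the shape of a point giving the experiment and the bar the mean ± SD of 3 values per population. The Gimap7 points of Treg, from 10871 to 11989, lie above all points of PD1hi and Tconv, and Gimap1 is high in experiment 5 in each population.

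Differences were tested with limma over all 14177 genes, with Benjamini-Hochberg adjusted p under 0.05 as the call, and are given as log2 fold changes ± SE. In PD1hi against Tconv 26.1% of all tested genes were called, 14.2% higher and 11.9% lower. The higher genes made up 54.4% of those calls, or 65.4% with libraries scaled to equal totals, which moves the median of all genes up by 0.142. Of the 8 GIMAP genes Gimap5 was higher, Gimap4 was lower and 6 were not called. In PD1hi against Treg 16.5% of all tested genes were called, 8.16% higher and 8.39% lower, and 3 GIMAP genes were called, Gimap3, Gimap4 and Gimap7, all lower in PD1hi. In Treg against Tconv 14.4% of all tested genes were called, 8.73% higher and 5.66% lower, and 2 GIMAP genes were called, Gimap5 and Gimap7, both higher in Treg. The median log2 fold change of the 8 genes was -0.26 in PD1hi against Tconv, -0.45 in PD1hi against Treg and 0.19 in Treg against Tconv, beside medians of 0, -0.009 and 0.006 over all tested genes. Without PD1hi of experiment 6 the member median was -0.11 in PD1hi against Tconv and -0.26 in PD1hi against Treg, so this library moved both by over 1.5 times. The scaling also moved it, to -0.11 with equal totals and -0.03 with quantile normalization in PD1hi against Tconv, and to 0.29 with quantile normalization in Treg against Tconv. Libraries of the populations compared did not overlap for 4 of the 8 genes in each comparison, where 33.8%, 22.5% and 19.7% of all tested genes did not overlap in PD1hi against Tconv, PD1hi against Treg and Treg against Tconv. The calls of Gimap7 in both comparisons with Treg and of Gimap5 in PD1hi against Tconv held under all 23 alternative settings, and the other calls did not.

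**Figure D2:**
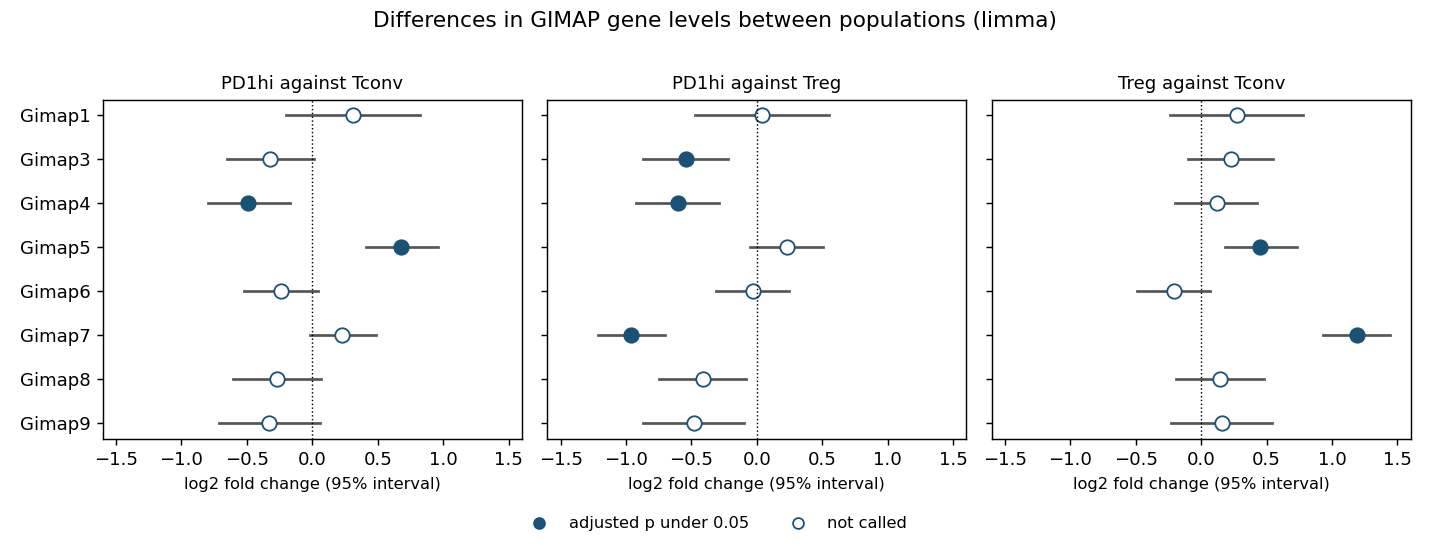
Log2 fold change (horizontal axis) of the 8 GIMAP genes with its 95% interval from limma, for PD1hi against Tconv, PD1hi against Treg and Treg against Tconv. Filled points have an adjusted p under 0.05, and Gimap7 in Treg against Tconv, at 1.19, lies farthest from 0.

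The proximal promoters of Gimap7, Gimap5 and Gimap4 are shown because each was called and follows a different pattern over the populations. The window of Gimap3, which was called in PD1hi against Treg only, is not shown. They are the 250 bases before the annotated start, 5′ to 3′ on the strand of the gene, from RefSeq on GRCm38.p6, and all 3 genes lie on the plus strand. The windows are chr6:48718371-48718620 for Gimap7, chr6:48745947-48746196 for Gimap5 and chr6:48684328-48684577 for Gimap4. Capitals mark matches on either strand to the cores GGAAG (ETS), TGTGGT (RUNX), GTAAACA (FOXO), CTTTGA (TCF/LEF) and GGGTG (KLF), none of which contains another.
Gimap7: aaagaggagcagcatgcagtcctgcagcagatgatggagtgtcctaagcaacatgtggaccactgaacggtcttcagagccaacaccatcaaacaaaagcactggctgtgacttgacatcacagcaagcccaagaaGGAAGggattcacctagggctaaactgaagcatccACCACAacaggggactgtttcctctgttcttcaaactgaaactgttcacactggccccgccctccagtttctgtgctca
Gimap5: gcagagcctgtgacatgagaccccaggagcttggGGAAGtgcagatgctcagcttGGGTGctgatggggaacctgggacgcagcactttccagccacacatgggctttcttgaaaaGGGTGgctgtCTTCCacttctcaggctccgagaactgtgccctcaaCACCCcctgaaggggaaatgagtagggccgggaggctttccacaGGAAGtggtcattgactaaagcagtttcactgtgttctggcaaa
Gimap4: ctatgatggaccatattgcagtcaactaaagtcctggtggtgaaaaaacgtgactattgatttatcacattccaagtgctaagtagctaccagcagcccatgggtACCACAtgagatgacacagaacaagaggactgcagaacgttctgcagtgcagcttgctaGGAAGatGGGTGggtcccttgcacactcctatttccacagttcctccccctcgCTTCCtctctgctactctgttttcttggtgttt

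The Gimap7 window held 1 ETS core and 1 RUNX core, the Gimap5 window 3 ETS and 3 KLF cores, and the Gimap4 window 2 ETS cores, 1 RUNX core and 1 KLF core. The 8 genes had 9 promoter windows in the table, since Gimap8 has a pair of starts. The windows of these starts overlap, and a KLF match in the shared bases was counted in both. The ETS core was in 8 of the 9, against 64.1% of 32851 promoters of the same length, and the KLF core in 6 of the 9, against 52%. The RUNX core was in 3 of the 9, against 14% of all promoters, the FOXO core in 1, that of Gimap3, against 3.17%, and the TCF/LEF core in 0, against 13.8%. Such a match describes letters in the window, and binding or chromatin at these windows was not measured.

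Gimap7 encodes a small GIMAP that in human cells acts on the GTPase activity of other family members. Its scaled counts were 5838, 6071 and 5976 in the PD1hi libraries of experiments 3, 5 and 6. In Treg they were 11989 and 11598 in experiment 3, 11789 in experiment 5, and 11365 and 10871 in experiment 6. In Tconv they were 4696 in experiment 3, 5694 and 5647 in experiment 5, and 4806 and 4996 in experiment 6. Every Treg library was far above every library of the other populations, which lay next to each other without overlap. Gimap7 rose in Treg relative to Tconv, with a log2 fold change of 1.19 ± 0.12 (2.28-fold, 95% interval 0.93 to 1.44 on the log2 scale, limma adjusted p = 2.86e-05), and was 1.33, 1.06 and 1.18 higher in experiments 3, 5 and 6. It was lower in PD1hi than in Treg by a log2 fold change of -0.96 ± 0.12 (limma adjusted p = 0.000117), in 3 of 3 experiments (-1.01, -0.96 and -0.9). In PD1hi against Tconv the log2 fold change was 0.23 ± 0.12 (95% interval -0.02 to 0.49, limma adjusted p = 0.171), and it was called higher only with libraries scaled to equal totals (0.38, adjusted p = 0.0376) or quantile normalized (0.41, adjusted p = 0.0337). Among the 1237 genes called higher in Treg than in Tconv the fold of Gimap7 ranked 796th by size. Its levels within PD1hi were the least spread of the family there, with a mean of 5962 ± 117 (SD, n = 3).

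Gimap5 encodes the lysosomal family member whose loss in rats and mice causes a shortage of T cells. Its scaled counts were 4531, 4637 and 5430 in PD1hi of experiments 3, 5 and 6. The Treg libraries had 4345 and 4141 in experiment 3, 4241 in experiment 5, and 3745 and 4098 in experiment 6. The Tconv libraries had 2955 in experiment 3, 3418 and 3291 in experiment 5, and 2882 and 2660 in experiment 6. The 3 populations did not overlap, with PD1hi highest and Tconv lowest, and in PD1hi the library of experiment 6, in which other members were low, was the highest. Gimap5 was higher in PD1hi than in Tconv by a log2 fold change of 0.68 ± 0.13 (1.61-fold, limma adjusted p = 0.00171), in 3 of 3 experiments (0.62, 0.47 and 0.97). Without the PD1hi library of experiment 6 this was 0.6 with an adjusted p of 0.00256 by limma. In Treg against Tconv the log2 fold change was 0.45 ± 0.13 (limma adjusted p = 0.0324), in 3 of 3 experiments. That call was lost without Treg of experiment 3, 5 or 6 (limma adjusted p = 0.0896, 0.11 and 0.0636) and without Tconv of experiment 3 or 6 (0.114 and 0.149). Between PD1hi and Treg the log2 fold change was 0.23 ± 0.13 (95% interval -0.05 to 0.51, limma adjusted p = 0.272), and 0.15 without PD1hi of experiment 6 (adjusted p = 0.458). The part of reads misplaced between Gimap5 and Gimap3 in these values was not tested.

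Gimap3 is the close paralog of Gimap5 and encodes a membrane protein of the endoplasmic reticulum and mitochondria in mice. Its scaled counts were 17244, 18832 and 14235 in PD1hi of experiments 3, 5 and 6. In Treg they were 24012 and 17762 in experiment 3, 25515 in experiment 5, and 27304 and 26455 in experiment 6. In Tconv they were 18638 in experiment 3, 23540 and 20651 in experiment 5, and 22245 and 21231 in experiment 6. The lower Treg value of experiment 3 belongs to the library that stood apart and is the only one that overlaps PD1hi. Gimap3 was lower in PD1hi than in Treg by a log2 fold change of -0.54 ± 0.15 (limma adjusted p = 0.0272). Without that Treg library it was -0.61 (limma adjusted p = 0.00807), and without PD1hi of experiment 6 it was -0.43 (limma adjusted p = 0.0485). The call was lost without PD1hi of experiment 3 or Treg of experiment 5 or 6 (limma adjusted p = 0.0522, 0.0966 and 0.114). Gimap3 was not called in PD1hi against Tconv, at -0.32 ± 0.15 (95% interval -0.65 to 0.01), nor in Treg against Tconv, at 0.23 ± 0.15 (limma adjusted p = 0.149 and 0.41). In PD1hi against Tconv its log2 fold change was -0.2 without PD1hi of experiment 6 (limma adjusted p = 0.321) and -0.08 with quantile normalization (adjusted p = 0.762). The longest open reading frames of Gimap3 and Gimap5 were 90.3% identical over 898 aligned bases, and 22.2% of the 50-base windows of the shorter frame occurred in the other, so the split of reads between the 2 genes is uncertain. No other pair of the family was above 66.7% identity, the value of Gimap7 and Gimap9, which shared 0.0% of such windows.

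Gimap4 encodes a family member that in mice speeds the death of T cells after an apoptotic signal. Its scaled counts were 31982, 30504 and 23846 in PD1hi of experiments 3, 5 and 6. The Treg libraries had 42501 and 38101 in experiment 3, 44536 in experiment 5, and 45265 and 45471 in experiment 6. The Tconv libraries had 40466 in experiment 3, 36359 and 37267 in experiment 5, and 42069 and 43808 in experiment 6. All PD1hi libraries lay below all Treg and Tconv libraries, and the library of experiment 6 was the lowest of the 3. The log2 fold change was -0.6 ± 0.14 in PD1hi against Treg (0.659-fold, limma adjusted p = 0.0125), and by experiment it was -0.33, -0.55 and -0.93. In PD1hi against Tconv it was -0.49 ± 0.14 (0.714-fold, limma adjusted p = 0.0261), and by experiment -0.34, -0.27 and -0.85. Without PD1hi of experiment 6 these were -0.47 against Treg and -0.36 against Tconv (limma adjusted p = 0.0156 and 0.0433). The call against Tconv was lost without Tconv of experiment 3 or 6 (limma adjusted p = 0.0778 and 0.107), with equal totals (-0.34, 0.0552) and with quantile normalization (-0.21, 0.226). The call against Treg was lost without Treg of experiment 5 or 6 (limma adjusted p = 0.0501 and 0.0533). Treg and Tconv overlapped, with a log2 fold change of 0.12 ± 0.14 (95% interval -0.2 to 0.43, limma adjusted p = 0.702). In bulk RNA of a sorted population, fewer cells that express a gene and less RNA of it per cell cannot be told apart.

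Gimap6 encodes a cytosolic member that binds the autophagy protein GABARAPL2. Its scaled counts were 36341, 35931 and 30198 in PD1hi of experiments 3, 5 and 6. In Treg they were 35446 and 30582 in experiment 3, 35249 in experiment 5, and 37076 and 35239 in experiment 6. In Tconv they were 38189 in experiment 3, 40576 and 39077 in experiment 5, and 43460 and 42066 in experiment 6. Every Tconv library was above every library of the other populations, but no difference was called. The log2 fold change was -0.24 ± 0.13 in PD1hi against Tconv, -0.03 ± 0.13 in PD1hi against Treg and -0.21 ± 0.13 in Treg against Tconv (limma adjusted p = 0.198, 0.91 and 0.357). Without PD1hi of experiment 6 the value in PD1hi against Tconv was -0.15 (limma adjusted p = 0.361) and that in PD1hi against Treg 0.06 (adjusted p = 0.796), and without the second Treg library of experiment 3 the value in PD1hi against Treg was -0.07 (adjusted p = 0.771). These values lay near 0 and changed sign with the scaling, to 0.01 in PD1hi against Tconv and 0.03 in Treg against Tconv under quantile normalization and to 0.05 in PD1hi against Treg with equal totals.

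Gimap8 encodes the largest family member, with several GTPase domains, and Gimap9 a small one. Gimap8 had scaled counts of 6402, 6849 and 4851 in PD1hi of experiments 3, 5 and 6. In Treg it had 8591 and 5476 in experiment 3, 8033 in experiment 5, and 8954 and 8872 in experiment 6. In Tconv it had 7089 in experiment 3, 6826 and 6545 in experiment 5, and 8081 and 7688 in experiment 6. The Treg library of experiment 3 that stood apart was below all Tconv libraries, while the other 4 Treg libraries were above all PD1hi libraries. The log2 fold change in PD1hi against Treg was -0.41 ± 0.15 (limma adjusted p = 0.0957), it was called at -0.51 without that library (limma adjusted p = 0.0288), and without PD1hi of experiment 6 it was -0.26 (limma adjusted p = 0.198). In PD1hi against Tconv Gimap8 was not called, at -0.27 ± 0.15 (limma adjusted p = 0.23), and had -0.12 without PD1hi of experiment 6 (adjusted p = 0.553).

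Gimap9 had scaled counts of 4879, 4119 and 2808 in PD1hi of experiments 3, 5 and 6. The Treg libraries had 5456 and 5530 in experiment 3, 5161 in experiment 5, and 5405 and 5471 in experiment 6. The Tconv libraries had 4969 in experiment 3, 4301 and 4648 in experiment 5, and 5015 and 4988 in experiment 6. All PD1hi libraries were below all Treg libraries and the one of experiment 6 was far below the rest. The log2 fold change in PD1hi against Treg was -0.48 ± 0.18 (limma adjusted p = 0.0902), against -0.26 without PD1hi of experiment 6 (limma adjusted p = 0.17) and a called value without PD1hi of experiment 3 (limma adjusted p = 0.0224). In PD1hi against Tconv it was -0.33 ± 0.18, against -0.1 without PD1hi of experiment 6 (limma adjusted p = 0.207 and 0.593), and it was called without PD1hi of experiment 3 (limma adjusted p = 0.0496). Neither Gimap8 (0.14 ± 0.15) nor Gimap9 (0.16 ± 0.18) was called in Treg against Tconv (limma adjusted p = 0.648 and 0.668). Without the second Treg library of experiment 3 Gimap8 had 0.24 there (limma adjusted p = 0.354).

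Gimap1 encodes a Golgi protein. Its scaled counts were 4377, 6210 and 4538 in PD1hi of experiments 3, 5 and 6. In Treg they were 4431 and 4380 in experiment 3, 6086 in experiment 5, and 3921 and 4520 in experiment 6. In Tconv they were 3917 in experiment 3, 5164 and 6116 in experiment 5, and 2962 and 2921 in experiment 6. Gimap1 differed more between experiments than between populations, with the highest library of each population in experiment 5. No difference was called, with log2 fold changes of 0.31 ± 0.23 in PD1hi against Tconv, 0.04 ± 0.23 in PD1hi against Treg and 0.27 ± 0.23 in Treg against Tconv (limma adjusted p = 0.376, 0.937 and 0.554). Single samples moved these values: PD1hi against Tconv gave 0.08 without Tconv of experiment 6 and 0.55 without Tconv of experiment 5, and Treg against Tconv gave 0.04 and 0.51 without the same samples. Without PD1hi of experiment 6 the value in PD1hi against Treg was 0.11 (limma adjusted p = 0.825). With experiment as a block the differences of the 3 comparisons were not called either (limma adjusted p = 0.103, 0.861 and 0.212). An antisense gene, Gimap1os (Gm3345 in the table), shares 1107 exon bases with Gimap1, 36.0% of the exon bases of Gimap1 in GENCODE M21. It averaged 2553 ± 269 in PD1hi, 2991 ± 219 in Treg and 3098 ± 289 in Tconv (SD, n = 3 each) and was not called in any comparison. The sources used here do not state whether the counting used strand, so reads of the 2 genes cannot be told apart there.

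The composition of the family within a library does not depend on the scaling of libraries. Gimap7 made up 5.23 to 6.5% of the summed count of the 8 genes in PD1hi libraries, 7.71 to 9.87% in Treg libraries and 3.65 to 4.58% in Tconv libraries. Gimap5 made up 4.06 to 5.91% in PD1hi, 2.62 to 3.52% in Treg and 2.04 to 2.72% in Tconv, so PD1hi stood apart from both. The uncertain split of reads with Gimap3 applies to these shares too. Gimap6 made up 31.8 to 32.9% in PD1hi and 31.6 to 33% in Tconv, against 25 to 26% in Treg. Gimap4 made up 26 to 28.7% in PD1hi, 31.1 to 32.4% in Treg and 28.9 to 33.6% in Tconv, with no PD1hi library reaching the others. These shares sum to the whole in each library, so a higher share of 1 gene lowers those of the rest.

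**Figure D3:**
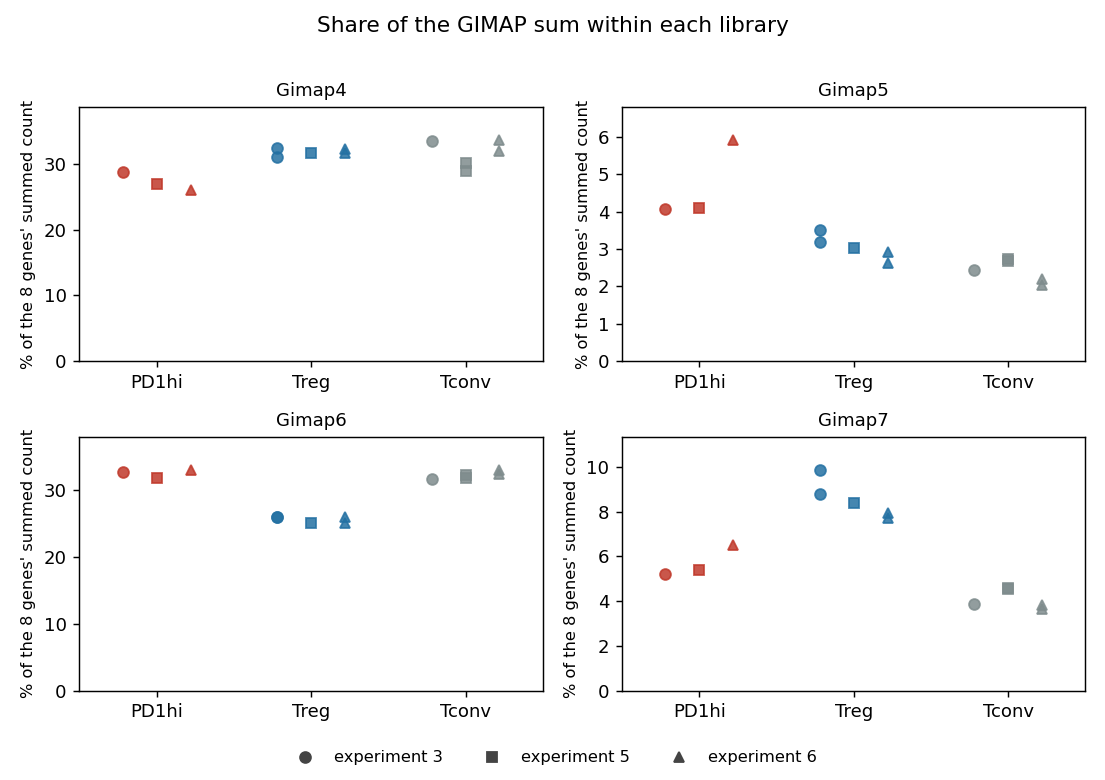
Share of the summed scaled count of the 8 GIMAP genes (vertical axis, percent, from 0) that Gimap4, Gimap5, Gimap6 and Gimap7 took in each PD1hi, Treg and Tconv library, with the shape of a point giving the experiment. Gimap5 is highest in PD1hi (4.06 to 5.91%), Gimap7 is highest in Treg (7.71 to 9.87%), and Gimap6 is lowest in Treg (25 to 26%).

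The members did not move as 1 unit over the 9 values. Gimap3, Gimap4, Gimap8 and Gimap9 varied alike, with Pearson correlations of log2 values from 0.76 (Gimap3 with Gimap9) to 0.93 (Gimap4 with Gimap8). Gimap5 and Gimap6 ran in opposite directions, with a correlation of -0.88, and Gimap5 and Gimap4 had -0.66. Gimap1 had correlations between -0.35 and 0.54 with the other members. After the mean of each population was subtracted, correlations within the group of 4 ran from 0.44 (Gimap3 with Gimap9) to 0.93 (Gimap4 with Gimap8), those of Gimap6 with the 4 from 0.77 to 0.92, and Gimap4 and Gimap5 had -0.91. Before that subtraction Gimap6 had 0.44 to 0.56 with the 4 over the 9 values. Also without subtraction, but without PD1hi of experiment 6, the 8 other values gave 0.47 (Gimap3 with Gimap9) to 0.85 (Gimap3 with Gimap8) within the group. They gave -0.3 to 0.1 for Gimap6 with the 4, -0.82 for Gimap5 with Gimap6 and -0.46 for Gimap5 with Gimap4. Correlations after subtraction are not given without PD1hi of experiment 6. That library held the lowest PD1hi value of Gimap6 and of the 4 and the highest of Gimap5, so it may weigh heavily in them. All these values share libraries and their scaling.

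In the order on chromosome 6 in RefSeq GRCm38.p6, the cluster runs Gimap8, Gimap9, Gimap4, Gimap6, Gimap7, Gimap1, Gimap5 and Gimap3, with Repin1, Zfp775 and AI854703 before it and Tmem176b, Tmem176a and Aoc1 after it. Of the genes that varied alike, Gimap8, Gimap9 and Gimap4 lie together at one end and Gimap3 at the other, and Gimap7, in the middle, had the largest difference in Treg against Tconv. Directly beside the cluster, AI854703 was lower in PD1hi than in Tconv (-0.81 ± 0.2, limma adjusted p = 0.0101) and lower in Treg than in Tconv (-0.7 ± 0.2, adjusted p = 0.0354). On the other side Tmem176b, which encodes a membrane channel protein, was higher in PD1hi than in Treg (0.91 ± 0.26, limma adjusted p = 0.0352) and lower in Treg than in Tconv (-0.92 ± 0.26, adjusted p = 0.0356). Repin1, a zinc finger gene, averaged 288.6 ± 71.2 scaled counts in PD1hi, against 78.45 ± 27.2 in Treg and 70.95 ± 51.4 in Tconv (SD, n = 3 each). Repin1 was higher in PD1hi than in Tconv (2.22 ± 0.46, limma adjusted p = 0.0033) and than in Treg (1.9 ± 0.46, adjusted p = 0.0127). Except that of Repin1 against Tconv, these calls were lost when single samples were left out. AI854703 lost its call in Treg against Tconv when any 1 of the 6 values of these populations was left out (limma adjusted p = 0.0607 to 0.159), and in PD1hi against Tconv without Tconv of experiment 3 (0.0561). Tmem176b lost its call in PD1hi against Treg without PD1hi of experiment 5 or 6, Treg of experiment 3 or 6 or Tconv of experiment 3 (limma adjusted p = 0.107, 0.0708, 0.0909, 0.146 and 0.055). In Treg against Tconv it lost it without Treg of experiment 3 or 6 or Tconv of experiment 3 or 5 (limma adjusted p = 0.0923, 0.139, 0.0987 and 0.147). Repin1 lost its call against Treg without PD1hi of experiment 5 or Treg of experiment 6 (limma adjusted p = 0.0547 and 0.06). Zfp775 and Tmem176a were not called in any comparison. Aoc1, a diamine oxidase listed as Abp1 in the table, had 27.7, 59.6 and 62 scaled counts in PD1hi libraries and 0 to 9.4 in Treg libraries, and no read in the 5 Tconv libraries. It was called higher in PD1hi than in Treg (3.29 ± 0.71, limma adjusted p = 0.0066) and than in Tconv (limma adjusted p = 0.000109), where the 143 reads of the 3 PD1hi libraries made it at least 81-fold higher, per summed size factor, than a floor of 3 reads over the 5 Tconv libraries.

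**Figure D4:**
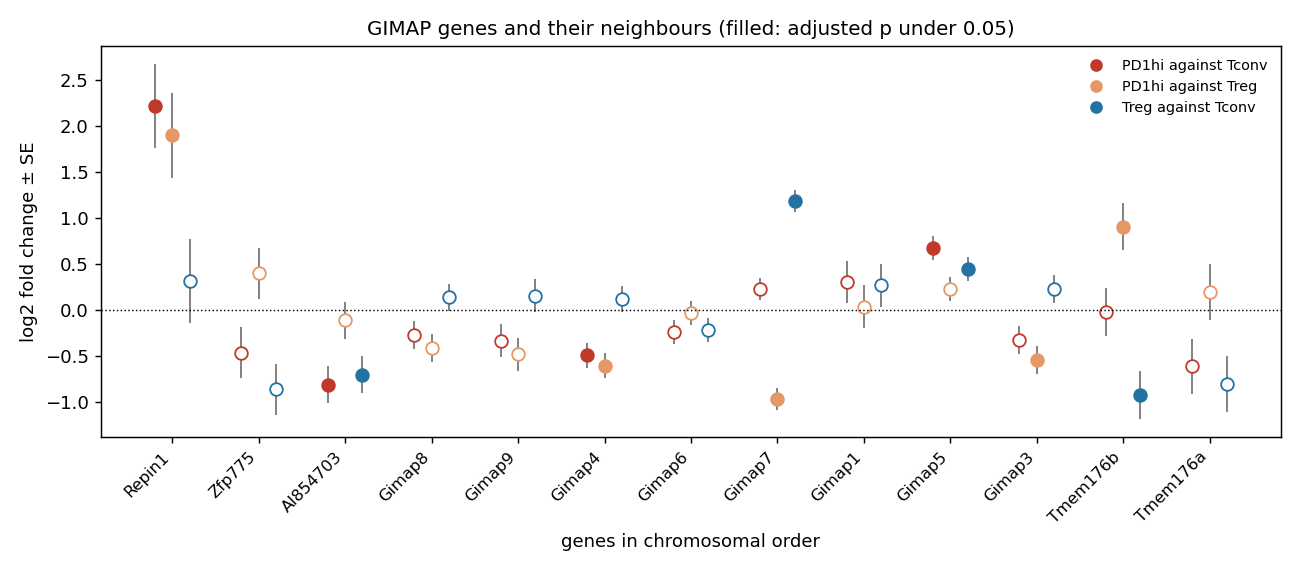
Log2 fold change ± SE (vertical axis) of the 8 GIMAP genes and 5 of the 6 neighbours in their order on the chromosome, for PD1hi against Tconv, PD1hi against Treg and Treg against Tconv, with filled points at an adjusted p under 0.05. Gimap7 at 1.19 and Gimap5 at 0.68 are the highest points inside the cluster, and Repin1 at 2.22 lies above them. Aoc1 is not drawn, since it had no read in Tconv.

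The genes whose 9 log2 values were most like the mean profile of the 8 members, out of 14169 other tested genes, were Mlkl (r = 0.983), Adam19 (0.983), Pros1 (0.982), Fam124b (0.972) and Gp49a (0.971). The profile was highest in Treg and lowest in PD1hi of experiment 6. Members were centred but not scaled to equal spread in it, so members that varied more weighed more. The SD over the 9 values was 40.6% of the mean for Gimap7, against 10% (Gimap6) to 22.8% (Gimap1) for the others. Adam19, a membrane protease, averaged 1698 ± 604 in PD1hi, 3337 ± 621 in Treg and 1685 ± 368 in Tconv (SD, n = 3 each). Mlkl, which executes necroptosis, averaged 33.45 ± 21.3 in PD1hi, 173.4 ± 50.2 in Treg and 30.81 ± 5.22 in Tconv (SD, n = 3 each). These correlations are over 9 values and describe likeness only.

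Genes of processes linked to the family were counted from lists. Of all tested genes 26.1% were called in PD1hi against Tconv, 16.5% in PD1hi against Treg and 14.4% in Treg against Tconv. Of 13 survival and apoptosis genes, 2 were higher and 4 lower in PD1hi against Tconv, with a median log2 fold change of 0.13. In PD1hi against Treg 1 was higher and 6 were lower (median -0.53), and in Treg against Tconv 3 were higher and 2 lower (median 0.36). Il7r, the receptor chain for the survival cytokine IL-7, was lower in PD1hi than in Tconv by -2.12 ± 0.18 (limma adjusted p = 6.05e-06), in PD1hi than in Treg by -1.19 ± 0.18 (adjusted p = 0.000667) and in Treg than in Tconv by -0.93 ± 0.18 (adjusted p = 0.00448). Bcl2, which blocks apoptosis, was lower in PD1hi than in Tconv (-0.53 ± 0.13, limma adjusted p = 0.0105) and in Treg than in Tconv (-0.48 ± 0.13, adjusted p = 0.0276). The call of Bcl2 against Tconv was lost in PD1hi with equal totals or quantile normalization (limma adjusted p = 0.0554 and 0.0691). In Treg it was lost without Treg of experiment 3 or 5 or Tconv of experiment 3 or 5 (0.103, 0.067, 0.1 and 0.111). There it was also lost with equal totals (0.0613) or no trend (0.0764). Bcl2l1, which encodes the survival protein BCL-XL, was lower in PD1hi than in Treg (-1.03 ± 0.21, limma adjusted p = 0.00473). Mcl1 (-0.78 ± 0.23, limma adjusted p = 0.0351) and Bid (-0.53 ± 0.16, 0.0453) were also lower there. The call of Mcl1 was lost without the second Treg library of experiment 3 (-0.59, limma adjusted p = 0.0832). It was also lost without PD1hi of experiment 3 or 5 or Treg of experiment 3 or 5 (0.0957, 0.129, 0.137 and 0.0772). The same held without Tconv of experiment 3 or 6 (limma adjusted p = 0.0523 and 0.0506) and with equal totals or quantile normalization (0.0752 and 0.0864). With no trend or only 2 populations Mcl1 was not called either (0.0936 and 0.0701). The call of Bid was lost without PD1hi of experiment 5 or 6 or Treg of experiment 3 or 6 (0.103, 0.0909, 0.162 and 0.118). Leaving out any single Tconv value also lost it (limma adjusted p = 0.0644 to 0.0685). So did no minimum mean (0.0514), equal totals (0.0683), no trend (0.0825) and only 2 populations (0.0988). Bcl2l11, which encodes the death protein BIM, was lower in PD1hi than in Tconv (-0.99 ± 0.16, limma adjusted p = 0.000714) and than in Treg (-0.98 ± 0.16, adjusted p = 0.00116). Pmaip1, which encodes the death protein NOXA, was higher in PD1hi than in Tconv (1.45 ± 0.34, limma adjusted p = 0.00749) and in Treg than in Tconv (1.42 ± 0.34, adjusted p = 0.0142), where the call was lost without Treg of experiment 3 or Tconv of experiment 6 (0.0537 and 0.0689). Bcl2a1b was higher in each of the 3 comparisons, but it has near-identical copies between which reads may be split. Its call in Treg against Tconv was lost when any 1 of the 6 values of these populations was left out (limma adjusted p = 0.0574 to 0.114). The list had 2 calls in place of 5 in Treg against Tconv without Treg of experiment 3 or Tconv of experiment 6, and 3 without Treg of experiment 5 or Tconv of experiment 3 or 5.

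Of 14 autophagy genes, 2 were higher and 0 lower in PD1hi against Tconv (median 0.15), and 0 were called in PD1hi against Treg (median 0.05). In Treg against Tconv 1 was higher and 0 lower (median 0.06). The shares of all tested genes called in these comparisons were 26.1%, 16.5% and 14.4%. Gabarap, an ATG8 gene, was called in PD1hi against Tconv (0.52 ± 0.14, limma adjusted p = 0.016), but not without Tconv of experiment 6 (0.47, adjusted p = 0.0751), which leaves 1 call. Gabarapl1, another ATG8 gene, averaged 357 ± 57.6 in PD1hi, 277.9 ± 60.4 in Treg and 43.67 ± 8.6 in Tconv (SD, n = 3 each). Gabarapl1 was higher in PD1hi than in Tconv (3.01 ± 0.25, limma adjusted p = 4.95e-06) and in Treg than in Tconv (2.64 ± 0.25, adjusted p = 2.49e-05). Gabarapl2, the partner of GIMAP6, averaged 1173 ± 169 in PD1hi, 1253 ± 107 in Treg and 1469 ± 42.3 in Tconv (SD, n = 3 each) and was not called. Of 12 genes of quiescence and the naive state, 0 were higher and 10 lower in PD1hi against Tconv (median -1.57). In PD1hi against Treg 1 was higher and 7 lower (median -0.73), and in Treg against Tconv 0 were higher and 6 lower (median -0.71). In PD1hi against Treg S1pr1 lost its call without PD1hi of experiment 3 or 6 (limma adjusted p = 0.0949 and 0.0773). It was also lost without Treg of experiment 3, 5 or 6 (0.0537, 0.114 and 0.145) or any single Tconv value (0.0588 to 0.0641). Tob1 lost its call there without PD1hi of experiment 5 or 6 (0.131 and 0.0785) or Treg of experiment 3 or 6 (0.155 and 0.0594). The same held for Tob1 without any single Tconv value (0.0514 to 0.056). Both calls were also lost with no trend (0.103 and 0.0773) or only 2 populations (0.0941 and 0.079). Tob1 also lost its call against Tconv without PD1hi of experiment 5 or Tconv of experiment 3 (limma adjusted p = 0.0608 and 0.0756). Foxo1, a transcription factor of quiescence, was lower in PD1hi than in Tconv (-1.41 ± 0.17, limma adjusted p = 6.34e-05) and than in Treg (-1.65 ± 0.17, adjusted p = 2.65e-05). The GIMAP genes changed by at most 0.68 in PD1hi against Tconv. Satb1, a chromatin organiser, had the largest change of this list there, at -4.57 ± 0.14 (limma adjusted p = 2.32e-09). Tcf7 (-0.05 ± 0.13) and Tsc1 (-0.04 ± 0.16) of the list were not called there (limma adjusted p = 0.814 and 0.88). Tcf7 was the gene called higher in PD1hi than in Treg (2.69 ± 0.13, limma adjusted p = 7.45e-08).

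**Figure D5:**
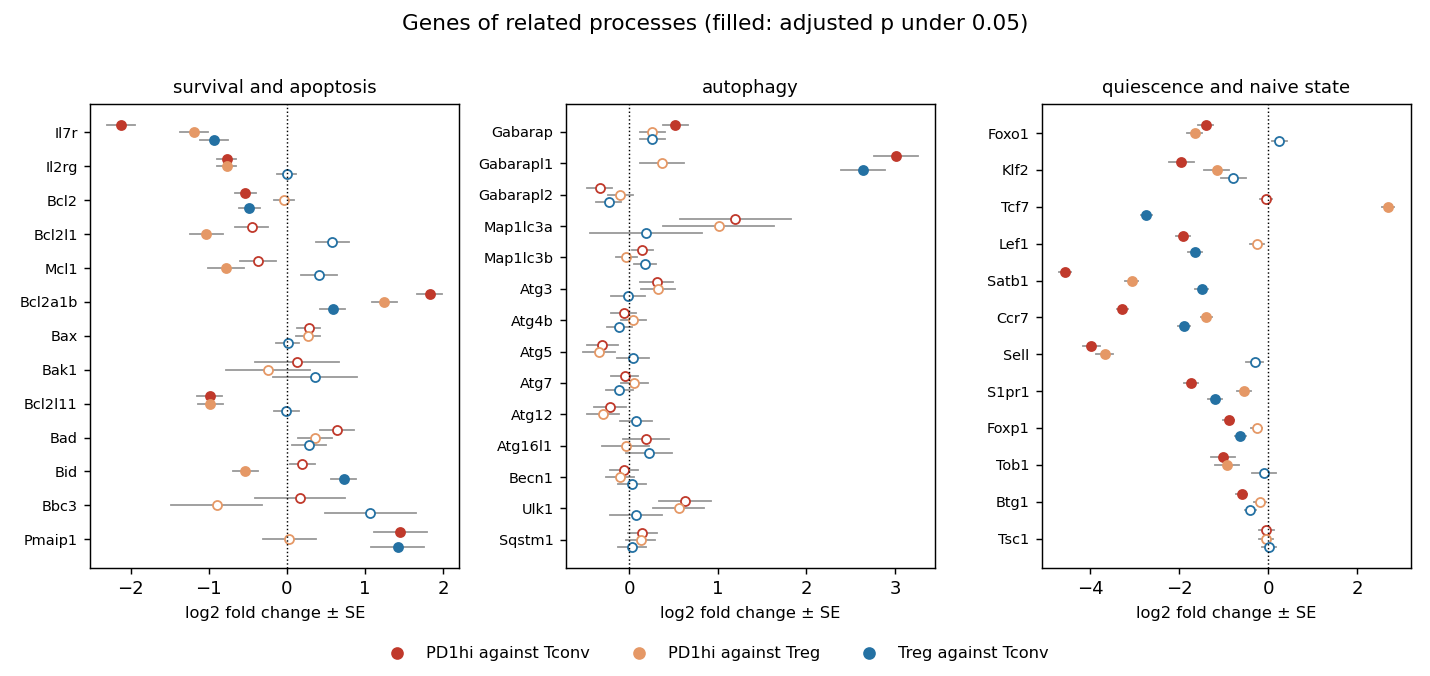
Log2 fold change ± SE (horizontal axis) of the 13 survival and apoptosis genes, 14 autophagy genes and 12 genes of quiescence and the naive state, for PD1hi against Tconv, PD1hi against Treg and Treg against Tconv. Filled points have an adjusted p under 0.05, as do 10 of the 12 quiescence genes in PD1hi against Tconv, all below 0.

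Markers of other cells were measured beside these results, since lymphocytes other than CD4 T cells and endothelial cells also express GIMAP genes. The summed scaled count of 6 B cell markers was 1778 to 2539 in PD1hi libraries, 863.5 to 1485 in Treg libraries and 264.3 to 1055 in Tconv libraries. Of 7 CD8 T and NK cell markers it was 2532 to 3950 in PD1hi, 973.3 to 1376 in Treg and 5243 to 7642 in Tconv. Of 4 endothelial markers it was 3832 to 5401 in PD1hi, 3172 to 5725 in Treg and 7115 to 9021 in Tconv. The endothelial sum was nearly all Pecam1, which averaged 4770 ± 827 in PD1hi, 4655 ± 789 in Treg and 8191 ± 736 in Tconv (SD, n = 3 each), while Cdh5, Kdr and Tek averaged 0 to 5.781 in all 3. In the B cell sum Cd22 averaged 1675 ± 243 in PD1hi, 240.9 ± 30.7 in Treg and 178.5 ± 51.8 in Tconv, while Pax5 averaged 6.484 ± 4.01 in PD1hi, 0.5389 ± 0.933 in Treg and 1.066 ± 1.85 in Tconv (SD, n = 3 each). Cd79b of the same list followed another order, with 129.7 ± 39.4 in PD1hi, 629.4 ± 83.8 in Treg and 57.84 ± 3.12 in Tconv (SD, n = 3 each). It was lower in PD1hi than in Treg (-2.31 ± 0.26, limma adjusted p = 6.87e-05), higher in PD1hi than in Tconv (1.1 ± 0.26, adjusted p = 0.00804) and higher in Treg than in Tconv (3.41 ± 0.26, adjusted p = 5.11e-06). In the CD8 T and NK cell sum Cd8a averaged 5.552 to 8.427 in the 3 populations, while Cd8b1 averaged 98.11 ± 40.2 in PD1hi, 259.7 ± 55.1 in Treg and 423.6 ± 37.7 in Tconv (SD, n = 3 each). Klrb1c averaged 261.6 ± 92.5 in PD1hi, 141.4 ± 55.5 in Treg and 984.1 ± 59 in Tconv, and Nkg7 averaged 2567 ± 677 in PD1hi, 662 ± 114 in Treg and 4111 ± 1260 in Tconv (SD, n = 3 each). Cd8b1 and Klrb1c were called lower in PD1hi than in Tconv (-2.19 ± 0.31 and -1.97 ± 0.29, limma adjusted p = 0.000243 and 0.000366). In PD1hi against Treg Nkg7 (1.93) and Eomes (2.32) were called higher and Cd8b1 (-1.47) lower (limma adjusted p = 0.000133, 0.00039 and 0.00579). Of the 6 tested genes of this list, 4 were called lower in Treg than in Tconv and 0 higher. These were Klrb1c (-2.86), Klrd1 (-4.73), Nkg7 (-2.6) and Eomes (-2.28), with limma adjusted p = 4.16e-05, 0.0133, 1.77e-05 and 0.000613. Sums of 7 myeloid and dendritic markers were 1725 to 2172 in PD1hi, 1516 to 2435 in Treg and 1343 to 1727 in Tconv. Cst3 made up most of them, with 1520 ± 134 in PD1hi, 1438 ± 182 in Treg and 1098 ± 168 in Tconv (SD, n = 3 each). Cst3 was called higher in PD1hi than in Tconv (0.48 ± 0.16, limma adjusted p = 0.0414). Itgam of the same list was lower in PD1hi than in Tconv (-3.15 ± 0.44, limma adjusted p = 0.000213) and than in Treg (-2.99 ± 0.44, adjusted p = 0.000454). Sums of 5 erythroid and platelet markers were 44.07 to 82.62 in PD1hi, 32.78 to 87.3 in Treg and 18.94 to 71.4 in Tconv. Kdr in Treg was the only marker of these lists with no read in a population. The T cell identity genes Cd3e, Cd3d, Cd4, Cd5 and Trac summed to 117600 to 127700 in PD1hi, 69830 to 85330 in Treg and 92020 to 101800 in Tconv. The part of these cells in the GIMAP differences was not tested.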

How the data were processed

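RNA-seq of 3 sorted mouse CD4 T cell populations was analysed in 13 libraries. RNA was prepared with Trizol, per the labels' protocols, depleted of ribosomal RNA with a low-input RiboMinus kit and made into Ion Torrent libraries with the Ion Total RNA-seq kit. Tools named per the submitters' processing notes are HTSeq 0.5.4, Picard and limma, with the builds mm9, hg19 and GRCh37 and no role for each. Aligner and strand setting: not given in the sources used here. A single table was deposited in the unit signal, counts scaled by size factors plus 1, and the 1 was subtracted. 100% of values were then whole reads within 0.001 reads, which gave the depth of each library.

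Averaging libraries that share an experiment and a population gave 9 values. Genes whose scaled counts averaged 10 or more over these were tested on log2(scaled count + 1), which understates the change of low genes, with limma 3.58.1 in R 4.3.3 (trend, all populations in 1 fit, 2-sided, Benjamini-Hochberg adjusted p under 0.05). The fitting was tested on simulated data with independent libraries, the same level of noise for every gene and no effect of experiment. That test does not cover batches or a library that stands apart. The titles number a shared experiment, so experiment marks a batch. Values of the same experiment had correlations of their deviations from the population means of -0.07 to 0.298 over 14177 genes, and experiment was entered as a block in an alternative. The members and lists were chosen with earlier results of these data known. All 8 members are named, with the genes of the lists that bear on them, 3 neighbours on each side and the 5 genes most like the mean member profile. Promoters come from RefSeq on GRCm38.p6 and exon lengths from GENCODE M21, which is not the mouse build named for the files, so no coordinates were joined to the values. Alternatives covered scaling, pseudocount, minimum mean, averaging, the block and left-out libraries. A B cell marker of the lists is not reported here and is left out of the B cell sum.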

Additional observations from a re-analysis of the deposited data

Results flagged for a closer look

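In groups of 5 libraries, the Treg library of experiment 3 titled as a replicate lay far from the other 4 for 2 genes, out of 16 groups of this size tested (8 genes in Treg and in Tconv). Its scaled count of Gimap6 was 30582, against 35239 to 37076 in the other Treg libraries, a gap of 0.736 of the whole range. Its scaled count of Gimap8 was 5475.7, against 8033.2 to 8953.8, a gap of 0.779 of the whole range. Chance flags about 1 in 20 such groups if the 5 values are independent. Libraries of the same experiment are not known to be, and the 8 genes share libraries, so the true rate is not known. Both values come from the same library.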

How the results depend on the processing

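Counts of calls, the members' folds and medians, and the folds of called neighbours and list genes were recomputed under 23 alternatives, 2 of them chosen after seeing the data; levels, shares, correlations and likeness to the mean profile were not. Of 552 values of single members, 511 kept their direction and their side of the threshold, 24 lost a call, 9 gained one and 8 changed sign without a call on either side. Of 1217 values of other called genes 108 lost the call and 0 changed sign, and of 207 counts of called list genes 9 moved by over 1.5 times, among them the quiescence genes called in PD1hi against Treg (5 with experiment 5 left out) and the survival genes called in Treg against Tconv (3 with no trend, 1 with experiment 5 left out). The changes of sign were those of Gimap6 in PD1hi against Treg to 0.05 with equal totals, 0.06 without PD1hi of experiment 6 and 0.02 without both libraries that stood apart, of Gimap6 under quantile normalization to 0.01 in PD1hi against Tconv and 0.03 in Treg against Tconv, and of Gimap1 in PD1hi against Treg to -0.12, -0.03 and -0.06 without PD1hi of experiment 5, Treg of experiment 3 or Treg of experiment 6. With 1 population of 1 experiment left out, these ranged from -0.12 to 0.21 for Gimap1 and from -0.08 to 0.06 for Gimap6, both in PD1hi against Treg. Member calls numbered 1 instead of 2 in PD1hi against Tconv with no trend, with only the 2 populations compared and with experiment 5 left out. They numbered 1 instead of 2 in Treg against Tconv with no trend and with experiment 5 left out, and 1 instead of 3 in PD1hi against Treg with experiment 5 left out, which leaves 2 values per population. With 1 population of 1 experiment left out, member calls ranged from 1 to 3 in PD1hi against Tconv, 1 to 3 in PD1hi against Treg and 1 to 2 in Treg against Tconv. Over all genes, calls in Treg against Tconv numbered 3151 with 13 libraries as separate samples and 976 with experiment 5 left out, against 2039, and calls in PD1hi against Treg numbered 1316 with experiment 5 left out, against 2346. With experiment as a replicate block the calls numbered 3974 in PD1hi against Tconv, 2579 in PD1hi against Treg and 2204 in Treg against Tconv, and no member call changed. Gimap7 ranged from -0.98 to -0.83 in PD1hi against Treg and from 1.13 to 1.27 in Treg against Tconv. Gimap5 ranged from 0.6 to 0.84 in PD1hi against Tconv, with adjusted p of at most 0.0171. Calls also lost beyond those given above were Gimap3 in PD1hi against Treg with no trend or only 2 populations (adjusted p = 0.0732 and 0.0614), Gimap4 in PD1hi against Tconv likewise (0.0592 and 0.055), and Gimap5 in Treg against Tconv with quantile normalization or no trend (0.0792 and 0.0831). With experiment 5 left out the adjusted p was 0.137 for Gimap3 and 0.122 for Gimap4 in PD1hi against Treg, 0.0961 for Gimap4 in PD1hi against Tconv and 0.157 for Gimap5 in Treg against Tconv. Calls were also gained by Gimap3 in Treg against Tconv under quantile normalization (0.51, 0.0471), and in PD1hi against Treg by Gimap9 with 13 libraries as separate samples or with duplicateCorrelation (0.0177 and 0.0289) and by Gimap8 without both libraries that stood apart (-0.36, 0.0419). The cause of these changes was not tested. Every member had at least 2434 reads in each library.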
